A study of Mus musculus with 18 samples.

Results

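The RNAs described here are 7 long non-coding RNAs that are kept largely in the nucleus (Malat1, Neat1, Meg3, Rian, Mirg, Miat and Snhg11), the 45S ribosomal RNA precursor Rn45s, and Lars2, which encodes the mitochondrial leucyl-tRNA synthetase. They were chosen by symbol, with their levels in these libraries already known, and make up 9 of the 24405 gene rows used. All 9 passed the filter that kept 15808 genes with a mean of at least 10 normalised reads. The samples were whole brains, taken post mortem, of male mice labelled C57BL/6N. Young mice were 6 months old and old mice 27 months old. Each drank water with 0.2% carboxymethylcellulose, either alone (vehicle) or with 0.5 mg/mL apigenin, a plant flavone. The groups were young vehicle (4 libraries), young apigenin (4, of which 3 were used), old vehicle (5) and old apigenin (5). Poly(A) RNA was selected on oligo(dT) beads, and every value below is a normalised read number, with the 17 libraries scaled to nearly the same sum.

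Long RNAs that stay in the nucleus act there rather than being translated. Malat1 sits in nuclear speckles beside splicing factors, and the long form of Neat1 is the scaffold around which paraspeckles form. Meg3, Rian and Mirg are read from the maternal copy of the imprinted Dlk1-Dio3 region, where Rian hosts small nucleolar RNAs and Mirg hosts microRNAs; Miat is a nuclear RNA of neurons and Snhg11 is a small nucleolar RNA host gene. RNA polymerase I makes the 45S precursor in the nucleolus, where it is cut into the mature rRNAs; rRNA carries no long poly(A) tail and is largely lost when poly(A) RNA is selected.

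On the GRCm38 assembly (GENCODE M21), Malat1 and Neat1 are neighbours on the minus strand of chromosome 19, at chr19:5795690-5802672 and chr19:5824708-5845478. Their 3′ ends are shown because each long form ends in an encoded A-rich tract in place of an ordinary tail, with a pair of U-rich stretches upstream that fold onto the tract as a triple helix; RNase P makes the cut. The windows of 101 bases below are chr19:5795982-5796082 and chr19:5824708-5824808, both from the minus strand, at bases 6591 to 6691 of the 6983-base Malat1 transcript and at bases 20671 to 20771, the last of Neat1. Capitals mark every stretch of 9 or more bases found in both windows.
Malat1: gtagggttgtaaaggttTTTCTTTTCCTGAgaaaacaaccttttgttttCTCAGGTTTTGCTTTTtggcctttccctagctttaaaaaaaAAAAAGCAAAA
Neat1: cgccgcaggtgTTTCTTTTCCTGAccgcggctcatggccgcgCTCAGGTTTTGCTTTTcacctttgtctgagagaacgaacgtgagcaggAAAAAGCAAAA
The shared stretches are 13, 16 and 11 bases long and lie in the same order. Longest runs of A anywhere in the annotated transcripts were 16 bases in Meg3, 15 in Rian, 12 in Malat1, 11 in Lars2, 9 in Snhg11, 7 in Neat1, 5 in Mirg and 4 in Miat. A run of at least 12 was found in 7.10% of the 55341 annotated gene names, and a run of at least 16 in 2.87%.

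Meg3 (chr12:109541001-109571726, plus strand) carried the most reads of the 7, and its promoter is shown because Meg3, Miat and Snhg11 moved most closely together. The 300 bases are chr12:109540746-109541045 of GRCm38.p6, plus strand, from RefSeq, with 250 bases before the annotated start. Capitals mark the letters TGACGTCA (the cyclic AMP response element), CCAAT, and TATAAA with its reverse TTTATA, which overlap.
Meg3 promoter: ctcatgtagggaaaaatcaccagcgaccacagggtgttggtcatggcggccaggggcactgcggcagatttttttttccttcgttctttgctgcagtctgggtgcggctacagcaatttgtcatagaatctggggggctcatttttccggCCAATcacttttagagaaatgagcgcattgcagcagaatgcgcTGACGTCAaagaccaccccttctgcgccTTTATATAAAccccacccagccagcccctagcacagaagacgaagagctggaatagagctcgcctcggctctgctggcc
On either strand, TGACGTCA was in 1.79% of the 32851 promoters of that length, TATAAA in 13.6% and CCAAT in 37.4%. Among the 7 members with a promoter entry, Meg3 alone held TGACGTCA or TATAAA, and Mirg also held CCAAT.

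The row that followed Rn45s and Lars2 most closely was Mir6236, a short annotated microRNA gene at chr9:110281287-110281409. Its mature sequence (chr9:110281353-110281371 of GRCm38.p6, plus strand, RefSeq) is shown with the seed, bases 2 to 8, in capitals.
mmu-miR-6236: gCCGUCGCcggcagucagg
Lars2 (chr9:123366927-123462666, plus strand) lies on the same chromosome. Its 9 GENCODE transcripts gave 0 blastn alignments (largest E value 1e-05) to the 7 transcripts of Mir6236 and of the rRNA-like gene models. In the same search Gm42418 matched the annotated rRNA model CT010467.1 over 1244 bases at 100% identity. Rn45s itself has no entry in the annotation used, so no position or sequence is given for it. The search therefore did not include Rn45s, and whether Lars2 shares sequence with Rn45s was not tested.

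Recovered reads per library ran from 28171596 to 41145635, with 17978 to 19018 genes above 0. One young apigenin library was left out because its rows are displaced against the gene names. Markers of cerebellum were almost absent from old apigenin 3, with a mean log2 level of 6.80, and low in young vehicle 1 at 9.52, against 11.26 to 12.12 in the other libraries. Those of hindbrain and cord varied from 0.97 to 6.75 over all 17. All libraries are labelled as 1 strain, yet Nnt, Gabra2 and Wdfy1, genes known to differ between C57BL/6 substrains, separated the ages. Nnt was 1278 to 1453 in the 7 young libraries and 407 to 673 in the 10 old ones. Gabra2 was 2485 to 2944 against 499.6 to 921, and Wdfy1 2091 to 2484 against 464 to 840. Age and substrain therefore cannot be told apart in any old against young value below.

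Old vehicle 4 and old apigenin 5 were rich in the nuclear long non-coding RNAs, and old apigenin 2 was rich in rRNA. The 7 nuclear RNAs together took 0.634% of all reads in old vehicle 4 (95% Wilson interval 0.631 to 0.637%) and 0.539% in old apigenin 5 (0.536 to 0.541%), against 0.112 to 0.292% in the other 15 libraries. Rn45s took 3.36% of reads in old apigenin 2 (3.36 to 3.37%), against 0.150 to 0.728% in the other 16. These intervals cover counting error only, and reads from PCR are not independent molecules. The levels and joint movement below are a description, because these values helped choose the RNAs.

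**Figure D1:**
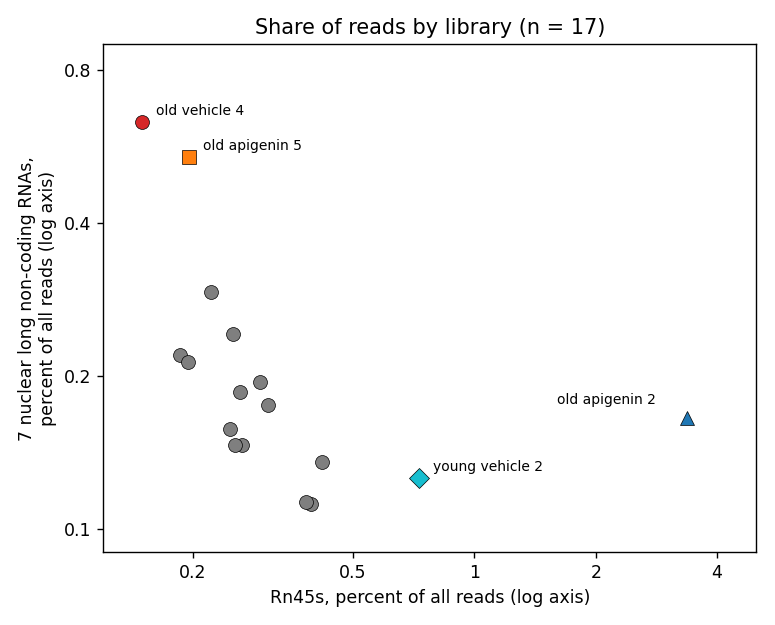
Share of all reads taken by Rn45s (x axis, percent, log axis) and by the 7 nuclear long non-coding RNAs together (y axis, percent, log axis), with 1 point per library (n = 17). Old vehicle 4 (0.634%) and old apigenin 5 (0.539%) lie at the top, and old apigenin 2 lies far to the right at 3.36% of reads for Rn45s.

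Malat1, the speckle RNA, was 31422 in old vehicle 4 and 8852, 8398, 5701 and 14686 in old vehicle 1, 2, 3 and 5. In old apigenin 1 to 5 it was 6206, 11671, 5705, 4560 and 23604. The young vehicle libraries held 13787, 6914, 10673 and 7501, and the young apigenin libraries 1, 2 and 4 held 9299, 8203 and 14949. Old vehicle 4 and old apigenin 5 were the highest of the 17, and without them all groups overlapped. Old apigenin 2, the rRNA-rich library, was also 2.13-fold the mean of old apigenin 1, 3 and 4, the libraries against which folds in old apigenin are given.

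Neat1, whose long form is the paraspeckle scaffold, has 4 annotated transcripts that share a row here, so its forms cannot be told apart. It was 1480.0, 1241, 1604 and 1499 in young vehicle 1 to 4, and young apigenin 1, 2 and 4 held 2102, 2547 and 2779. Old vehicle 1 to 5 held 2611, 2259.6, 2262.5, 7175 and 3705, and old apigenin 1 to 5 held 1907, 2260.07, 2198, 3312 and 6142. Every library of the other 3 groups lay above every young vehicle library, and the share of genes with this order was not counted. For old vehicle alone every library exceeded every young vehicle library in 6.62% of genes tested, and for young apigenin alone in 5.98%. The high pair was again old vehicle 4 and old apigenin 5, at 2.65-fold and 2.48-fold the mean of the rest of their groups.

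Meg3, the first RNA of the imprinted region, was 24061, 19270.1, 18148, 106411.5 and 33788 in old vehicle 1 to 5. Old apigenin 1 to 5 held 12985, 19623, 21392, 13278 and 88309. Young vehicle 1 to 4 held 30233, 17339.9, 25738 and 21565, and young apigenin 1, 2 and 4 held 27276, 29899 and 43909. The 2 high libraries stood at 4.47-fold and 5.56-fold the mean of the rest of their groups, the widest margin of the 7. The values of old vehicle and old apigenin without them overlapped those of young vehicle.

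Rian, the small nucleolar RNA host in the same region, varied least, 1.73-fold from the lowest to the highest library. It was 6815, 6365, 6561, 10048 and 7400.1 in old vehicle 1 to 5 and 6914, 7668, 6609, 7189 and 10026 in old apigenin 1 to 5. Young vehicle 1 to 4 held 7908, 5820.5, 7759 and 7056, and young apigenin 1, 2 and 4 held 8856, 9234 and 9845. The young apigenin libraries lay above every library except old vehicle 4 and old apigenin 5, and the share of genes with this order was not counted.

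Mirg, the microRNA host at the far end of the region, was the scarcest. Old vehicle 1 to 5 held 225, 183, 185, 615 and 226, and old apigenin 1 to 5 held 150.4, 205, 198, 171 and 567. Young vehicle 1 to 4 held 209.6, 210.3, 290.0 and 289, and young apigenin 1, 2 and 4 held 311, 396 and 323. The young apigenin libraries were thus above all but the 2 high old libraries, an order whose share over all genes was not counted.

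Miat was 10950 and 9956 in old vehicle 4 and old apigenin 5, rounded to whole reads, and 1524 to 5270 in the other 15, with a median of 2786. Snhg11 was 46052 and 42119 in that pair and 7498 to 21053 in the other 15, with a median of 12153. For all 7 nuclear RNAs the same 2 libraries were the 2 highest of 17, as they were for 15.1% of all genes tested. As RPKM, a level per exon length and library size, the medians were 46.2 for Snhg11, 39.6 for Meg3, 37.8 for Malat1, 12.1 for Rian, 9.14 for Miat, 3.24 for Neat1 and 0.922 for Mirg. Snhg11, Meg3 and Malat1 were neighbours in that order whose ranges over libraries overlapped widely.

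**Figure D2:**
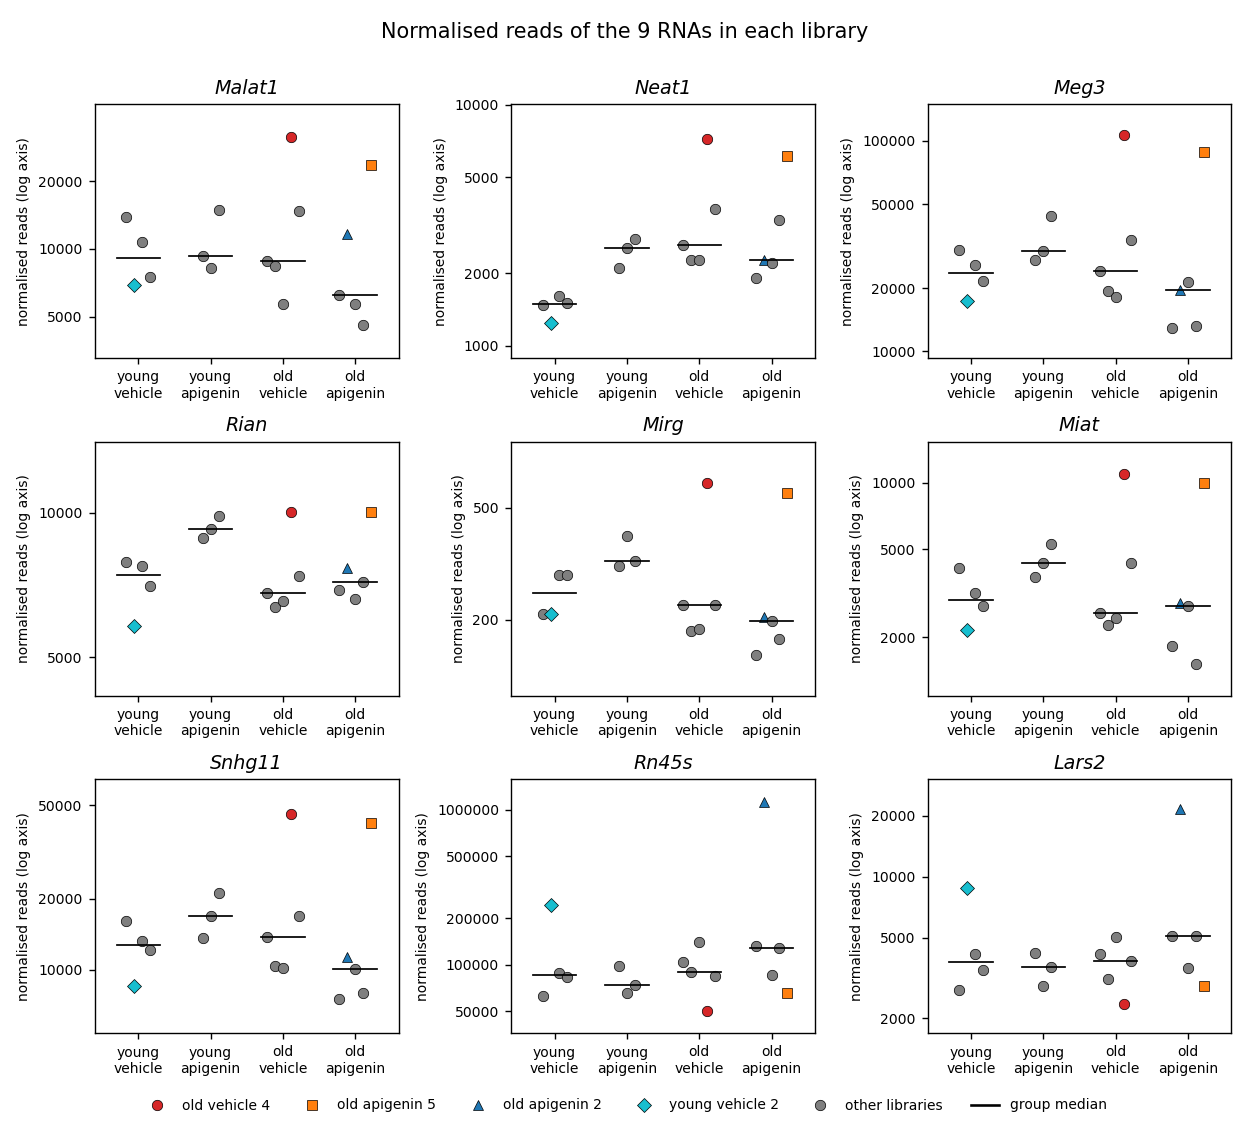
Normalised reads (y axes, log scale) of the 9 RNAs in each library, by group, with 1 point per library and a line at the group median (4, 3, 5 and 5 libraries). Old vehicle 4 (circle, red) and old apigenin 5 (square, orange) are the highest for each of the 7 nuclear RNAs, and old apigenin 2 (triangle) is the highest for Rn45s and Lars2.

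Rn45s was 131725, 1128462, 85335, 127914 and 65853 in old apigenin 1 to 5 and 103442, 89190.0, 140191.5, 50327 and 84500.3 in old vehicle 1 to 5. Young vehicle 1 to 4 held 62249.55, 244184, 88069 and 82940.0, and young apigenin 1, 2 and 4 held 98330.0, 65333 and 74316. Old apigenin 2 was at 9.81-fold the mean of old apigenin 1, 3 and 4, and young vehicle 2 was the next highest library. The lowest value of all was that of old vehicle 4.

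Lars2 followed the same libraries. It was 5092, 21709, 3522, 5081 and 2874 in old apigenin 1 to 5 and 4143, 3121, 5023, 2353 and 3826 in old vehicle 1 to 5. Young vehicle 1 to 4 held 2754, 8768, 4166 and 3448, and young apigenin 1, 2 and 4 held 4193, 2879 and 3586. Its 2 highest libraries were those of Rn45s.

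Reads of Lars2 stayed in a narrow ratio to those of Rn45s in 16 libraries, at 35.0 to 48.3 per 1000 Rn45s reads with a median of 42.1. In old apigenin 2 the ratio was 19.2. Mir6236 gave 27.0 to 40.6 per 1000 in the 16 libraries and 17.3 in old apigenin 2. The other 16 tested mitochondrial aminoacyl-tRNA synthetases, the enzymes that work beside Lars2, did not share this: their correlation with Rn45s ran from -0.69 to 0.34 (n = 17 libraries), and none was highest in old apigenin 2. Their highest library exceeded their lowest by 1.34-fold to 2.01-fold, against 9.22-fold for Lars2.

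Of a list of 25 other RNAs in the table taken to lack an ordinary poly(A) tail, 7 passed the filter. Rmrp, the RNA of RNase MRP, was 106 in old apigenin 2 (104 reads) and 4.14 to 42.3 in the other 16 libraries. Rpph1, the RNA of RNase P, was 39.9 there and 5.90 to 50.1 in the others, so that 2 libraries exceeded it. Hist3h2a, listed as a replication-dependent histone, was 326 in old apigenin 2 and 335 to 612 in the others. It lay well above the other tested histones, of which Hist1h4h was the highest at 19.5 to 56.7. Whether it lacked a tail in these samples was not tested. Of the 7 RNAs of this list that passed the filter, 1 was highest in old apigenin 2, as were 3.25% of all genes tested.

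Across the 17 libraries the 21 pairs of nuclear RNAs had a median Pearson's r of 0.83 on the log2(value + 1) scale, from 0.61 to 0.99, with a median Spearman's rho of 0.81. All points of a pair share each library's RNA preparation, depth and scaling, so these coefficients describe the libraries and carry no test. Meg3 with Snhg11 gave 0.99, and Neat1 with Mirg gave the lowest value, 0.61. With each group's mean removed the median was 0.91. Without old vehicle 4 and old apigenin 5 it was 0.74, with a range of -0.01 to 0.98, and with the group means removed as well it was 0.59. Neat1 changed most: its r with Meg3 was 0.73 over 17 libraries and 0.19 over 15, whereas Meg3 with Snhg11 was 0.98 over 15.

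Rn45s and Lars2 formed a separate pair, with r = 0.99 over 17 libraries and 0.96 without old apigenin 2 and young vehicle 2. Their coefficients with the 7 nuclear RNAs were all negative, from -0.51 to -0.29. The 14 values of Spearman's rho ran from -0.83 (Meg3 with Rn45s) to -0.27, with a median of -0.66. With the group means removed, r ran from -0.50 to -0.23 and rho from -0.49 to -0.23. With old vehicle 4 and old apigenin 5 removed as well, r ran from -0.26 to 0.23, no longer all negative. For Meg3 with Rn45s r was then -0.14 and rho -0.29. With the group means kept, removing libraries left all 14 values of r negative. Without old vehicle 4 and old apigenin 5 they ran from -0.43 to -0.05. Without old apigenin 2 alone they ran from -0.76 to -0.51, and without all of these libraries from -0.73 to -0.23.

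**Figure D3:**
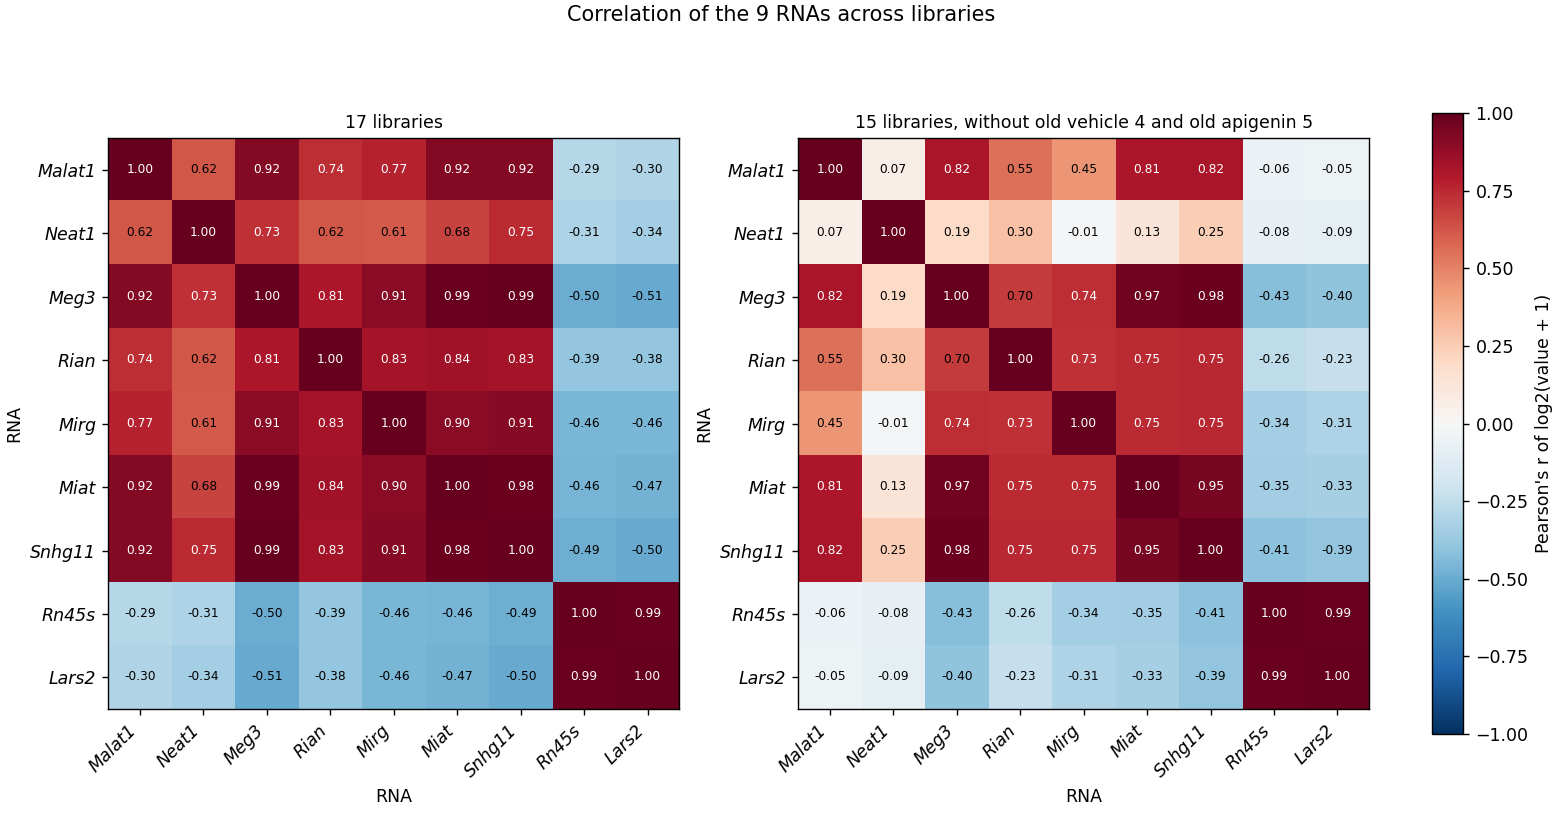
Pearson's r of log2(value + 1) for each pair of the 9 RNAs, over 17 libraries (left) and over the 15 without old vehicle 4 and old apigenin 5 (right), with the colour scale from -1 to 1. The nuclear RNAs form 1 block and Rn45s with Lars2 another at 0.99, and the row of Neat1 fades on the right, where its r with Meg3 is 0.19.

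The genes nearest to each RNA were taken as the 5 with the highest r over the 17 libraries. Trank1 was among the nearest for Meg3 (r = 0.97), Miat (0.97) and Snhg11 (0.98), as was Ftx, a long non-coding RNA of the X inactivation centre (0.97, 0.96 and 0.98). Snrnp70, a protein of the U1 spliceosomal particle, and Leng8 were also near Meg3 (0.97 each). Malat1 was nearest to Zbed6 (0.96), Rreb1 and Rbm33 (0.95 each), Rian to Tia1 (0.95), an RNA-binding protein, and Mirg to Mir124a-1hg (0.95), the host of a brain microRNA, and to the RNA export factor Nxf1 (0.95). Neat1 was nearest to Tpcn2 (0.96) and Hpn (0.94). Without old vehicle 4 and old apigenin 5 these values were lower. Examples are Trank1 with Meg3 at 0.93, Mir124a-1hg with Mirg at 0.87 and Hpn with Neat1 at 0.83. Over the 17 libraries an r of at least 0.90 was reached by 1.16% of the other 15807 genes for Meg3, and by 19 of them for Neat1. For Rn45s and Lars2 only each other and Mir6236 (0.98 and 0.99) reached it, with Rmrp next at 0.79 and 0.78. Without old apigenin 2 the values of Rmrp were 0.68 and 0.64.

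Within the imprinted region on chromosome 12, 72 of 86 RefSeq genes from Meg3 to Mirg were in the table, and 6 passed the filter. They were Meg3, Rian, Mirg, the protein-coding Rtl1, the small nucleolar RNA gene AF357359 and the microRNA gene Mir3072. AF357359, which lies inside Rian, was 429.9 and 431 in old vehicle 4 and old apigenin 5 against a median of 285 in the other 15, and its r with Rian was 0.92. Mir3072, inside Mirg, was 70.3 and 57.1 against a median of 14.9. Whether reads of these small genes came from the hosts that overlap them was not tested. Dlk1, a protein-coding gene of the region that is expressed from the paternal copy, was 1577 and 1635 in that pair, 0.78-fold and 0.72-fold the mean of the rest of their groups. Rtl1, also expressed from the paternal copy, went the other way, at 129 and 90.5, which is 2.21-fold and 1.85-fold; its gene model overlaps Meg3 and Rian in RefSeq, and whether strand was used in counting is not given in the sources used here.

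Other nuclear gene groups were followed in the same 2 libraries, against the 15.1% of all genes that had them as their 2 highest and the 5.35% that had them as their 2 lowest. Of 32 nuclear speckle and splicing factors, 20 had them as the 2 highest, with a median log2 difference of 0.34 and 0.31 from the rest of their groups, against 0.06 and 0.02 over all genes. Of 20 paraspeckle proteins it was 7, and of 27 other tested nuclear or brain long non-coding RNAs it was 8. Of 14 small nucleolar RNA host genes it was 3. Among gene types, 21.1% of 204 GENCODE lincRNAs and 22.4% of antisense genes had this order.

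The opposite order was seen for short, abundant messages of the cytoplasm. Of 77 cytosolic ribosomal protein genes, 76 were lower in both libraries than the rest of their groups, with median log2 differences of -0.31 and -0.48, and 26 had that pair as their 2 lowest. All 46 tested nuclear-encoded oxidative phosphorylation genes were lower in both, with medians of -0.22 and -0.35, and 17 had the pair as their 2 lowest. Of all genes tested 4921 of 15808 were lower in both, and of the protein-coding genes with up to 2829 exon bases 1925 of 3618. Protein-coding genes with the shortest exon length (up to 2829 bases) had these libraries as their 2 highest in 5.53% of cases, and those with the longest (over 6801 bases) in 27.3%. Why length and level moved together was not tested. Low levels of the ribosomal protein genes were not confined to old vehicle 4 and old apigenin 5. Their mean log2 level was lowest in young vehicle 2, at 12.0271, just below that pair. The 7 nuclear RNAs took only 0.126% of reads in young vehicle 2. For the oxidative phosphorylation genes young vehicle 2 came next above the pair, at 11.996.

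Markers of vessel cells were on average highest in the same 2 libraries, but did not follow the nuclear RNAs in every other library. The 10 endothelial markers had a mean log2 level of 10.07 and 10.06 in old vehicle 4 and old apigenin 5, against 9.52 to 9.99 in the other 15, and 5 of the 10 had that pair as their 2 highest. The 8 markers of pericytes and smooth muscle had a mean of 9.21 in old apigenin 5, nearly the same in old vehicle 4, against 8.19 to 8.82 in the others, with 4 of 8. The lowest of these, 8.19, was that of young apigenin 4, the library next after the pair for Meg3. Its endothelial mean was 9.72, near the median of 9.70 in the other 15. Old vehicle 5, which followed young apigenin 4 for Meg3, had the highest mean of the other 15 in both lists, 9.99 and 8.82. The 15 neuronal markers had 14.26 in old vehicle 4 and 14.24 in old apigenin 5, within the 14.24 to 14.44 of the others. Their part in the nuclear RNA levels was not tested, and in bulk tissue fewer cells of a type and less RNA per cell cannot be told apart.

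**Figure D4:**
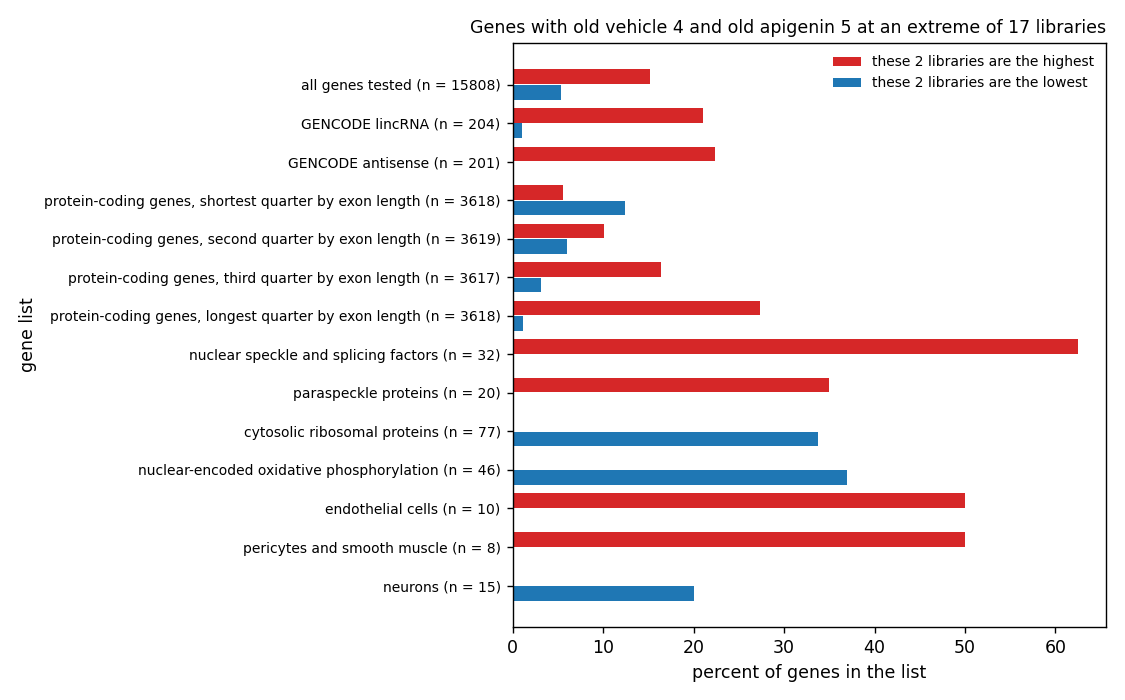
Percent of the genes in each list (x axis) for which old vehicle 4 and old apigenin 5 were the 2 highest (red) or the 2 lowest (blue) of 17 libraries, with the number of genes tested in each label. Splicing factors stand at 20 of 32 on the high side against 15.1% of all genes, and ribosomal protein and oxidative phosphorylation genes appear on the low side only.

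For the comparison of old with young brains on vehicle, which asks how the transcriptome differs with age, Neat1 showed the greatest difference of the 9. All 5 old vehicle libraries (2260 to 7175) lay above all 4 young vehicle libraries (1241 to 1604), an order found for 6.62% of genes tested. The fitted log2 difference was 1.16 ± 0.32 (SE, n = 5 and 4), with an adjusted p of 0.0527 by limma, which misses the 0.05 threshold. By edgeR on the recovered reads the adjusted p was 0.0498 and by DESeq2 0.0191. Leaving out old vehicle 3 or old apigenin 5 brought it under the threshold as well, so that 1 library decides on which side Neat1 lies. Without old vehicle 4 and old apigenin 5, a pair picked for high levels of these RNAs, the log2 difference was 0.87, which describes the remaining libraries and, given how the pair was picked, adds no support. The other 8 RNAs gave log2 differences of -0.27 to 0.43, none of them called. In all, 0 of 9 were called by limma, where 3.93% of all genes were; 1, Neat1, had an unadjusted p under 0.05 and was called by edgeR and by DESeq2.

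Meg3 rested on 1 library in that comparison: its log2 difference was 0.43 ± 0.51 with all libraries and -0.01 without old vehicle 4. For Malat1 the values were 0.29 ± 0.46 and -0.07. Genes of related lists were called in the same comparison, among them the splicing factors Srsf5 (log2 0.67 ± 0.15, adjusted p 0.0209 by limma), Srsf6 (0.51 ± 0.11, 0.0191) and Srsf3 (0.32 ± 0.08, 0.0282), 3 of 32 higher and none lower, against 3.13% of all genes called higher. The small nucleolar RNA host Gas5 rose (0.49 ± 0.08, 0.00299), 1 of 14 in its list, as did nucleolin, Ncl (0.30 ± 0.05, 0.00360), which binds rRNA precursors, with Exosc10 the 2 of 30 RNA polymerase I and rRNA processing genes that rose. Iars2 was the 1 of 16 mitochondrial synthetases that rose (0.24 ± 0.05, 0.0175). Of 27 other nuclear or brain long non-coding RNAs, Cep83os rose (0.36 ± 0.09, 0.0264) and the imprinted H19 fell by 1.27 (SE 0.35, adjusted p 0.0497 by limma). H19 was near the filter, with means of 21.9 in young vehicle and 8.74 in old vehicle. In the imprinted region on chromosome 12, Dio3 fell by 0.71 (SE 0.19, adjusted p 0.0483 by limma), 1 of 3 tested genes of its list. Over all genes, 127 of 15808 were called lower. Of the oligodendrocyte markers 7 of 10 rose in this comparison, and of the microglial markers 4 of 10. The 10 hindbrain and cord markers, 0 of them called, had a median log2 difference of -2.92 (-4.73 to -0.73). Hoxb5, among them, was 137 to 293 in young vehicle 1 to 4 and 1.96, 278, 0, 4.76 and 4.91 in old vehicle 1 to 5. How these differences in make-up bear on Neat1 and the splicing factors was not tested.

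For old against young brains on apigenin, 0 of 9 RNAs were called by limma, edgeR or DESeq2, against 1.76% of all genes by limma, and 0 of 9 had an unadjusted p under 0.05 by limma. At that unadjusted threshold edgeR passed 2 of the 9 and DESeq2 1. The fitted log2 differences were -0.59 ± 0.38 for Mirg, -0.59 ± 0.51 for Miat, -0.52 ± 0.56 for Meg3, -0.46 ± 0.49 for Snhg11 and -0.29 ± 0.14 for Rian, with adjusted p from 0.380 to 0.744 by limma (n = 5 and 3). Without old vehicle 4 and old apigenin 5, libraries picked for their levels of these very RNAs, the values were -0.92, -1.03, -1.01, -0.90 and -0.39, and 5 of 9 were called lower, where 2.59% of all genes were. Since the pair was picked for high levels, and removing the highest old library must lower the old mean, these 5 calls only describe the remaining libraries. Rn45s had a log2 difference of 1.04 ± 0.66 with an adjusted p of 0.526.

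Over both drinks, old against young gave 0 of 9 called by limma, against 12.1% of all genes, and 1 by edgeR and by DESeq2. Neat1 had a log2 difference of 0.69 ± 0.24 and an adjusted p of 0.0685 by limma (n = 10 and 7), and 0.0442 by edgeR and 0.0304 by DESeq2. Mirg had -0.27 ± 0.26 and Rian -0.12 ± 0.10. Without old vehicle 4 and old apigenin 5, 6 of 9 were called, with Neat1 higher at 0.41 and Mirg and Rian among the 5 lower ones at -0.60 and -0.23, where 10.3% of all genes were called higher and 8.15% lower. As the pair was picked for its levels of these RNAs, these calls too only describe the remaining libraries, and nothing is read from the shares.

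Apigenin against vehicle, the question of what the flavone does at each age, gave 0 of 9 called by limma in old brain and 0 of 9 in young brain, and 0% of all genes in each. At an unadjusted p under 0.05 limma passed 381 genes in old brain and 490 in young brain. Over all genes edgeR called 0 in each, and DESeq2 called 0 in old and 1 in young brain. Of the 9 RNAs, 0 in old brain and 1 in young brain, Rian, had an unadjusted p under 0.05 by limma. By edgeR the numbers were 2 in old and 1 in young brain, and by DESeq2 1 in each. In old brain Rn45s had a log2 difference of 0.86 ± 0.57 and Lars2 0.66 ± 0.42, both with an adjusted p of 0.986 by limma. Without old apigenin 2 these were 0.15 and 0.17, so that this library carries most of both differences. Meg3 had -0.45 ± 0.48.

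In young brain 3 of the 9, Neat1, Rian and Mirg, had every apigenin library above every vehicle library, an order held by 5.98% of genes tested. Neat1 was 2476 ± 344 (SD, n = 3) on apigenin and 1456 ± 153 (SD, n = 4) on vehicle, a log2 difference of 0.76 ± 0.37. Rian was 9312 ± 499 and 7136 ± 952, a difference of 0.39 ± 0.15. Both had an adjusted p of 0.999 by limma, and the fourth apigenin library was not used. The interaction of age and apigenin called 0 of 9, and 0% of all genes, by limma, 0 by edgeR and 0 by DESeq2, while 196 genes had an unadjusted p under 0.05 by limma, with Neat1 at -0.94 ± 0.48 and Rn45s at 1.25 ± 0.89 on the log2 scale. Of the 9 RNAs, 0 by limma, 1 by edgeR and 0 by DESeq2 had an unadjusted p under 0.05 for the interaction.

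**Figure D5:**
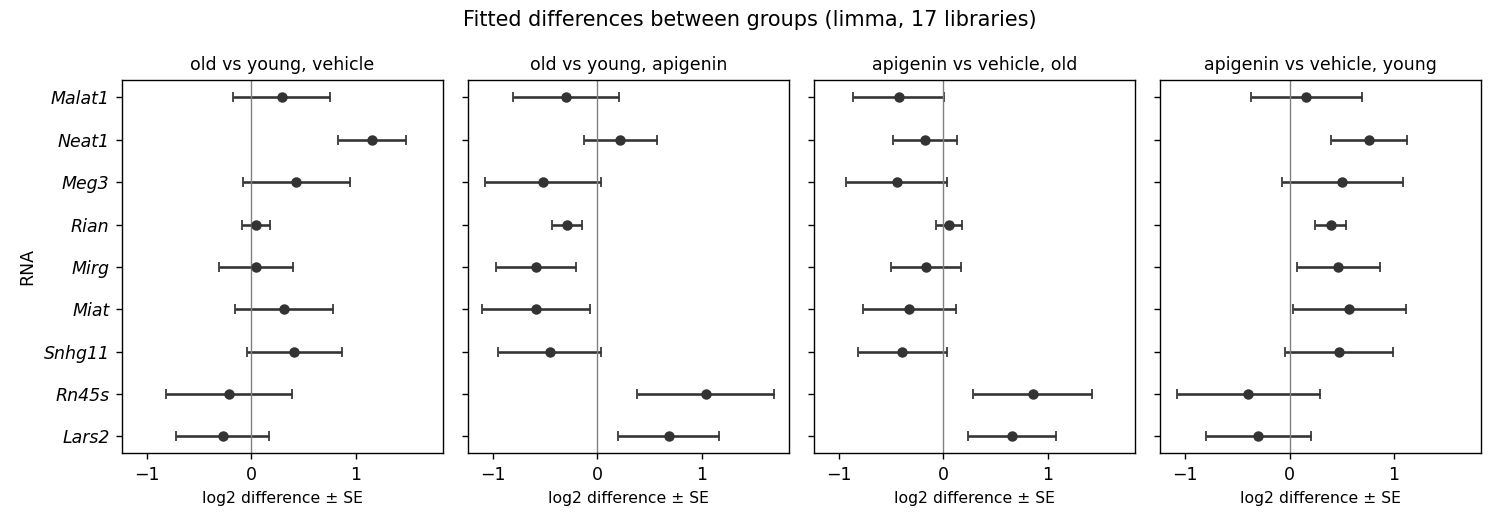
Fitted log2 differences (x axes) of the 9 RNAs with their standard errors (bars) in the 4 comparisons between groups, from limma on 17 libraries. Neat1 in old against young on vehicle lies at 1.16 ± 0.32, and no other RNA in that panel exceeds 0.43.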

How the data were processed

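Per the labels' protocols, poly(A) RNA of whole brain was captured on oligo(dT) beads and made into libraries with TruSeq kits. STAR and DESeq2 and the build mm10 are named in the submitters' processing notes, without versions. The authors deposited 1 table of normalised reads (a signal, not counts) with 24411 rows; each value is whole reads divided by a library factor, which brings all libraries to nearly 1 sum (33551002 to 33553860). Dividing by the step recovered whole reads for 100% of values above 0, within 0.01. The last 6 rows were left out, since 1 column keeps its values there and 4 cells are blank. The column of young apigenin 3 was left out: its correlation with the other libraries is 0.995 over the first 14029 rows and 0.555 after them.

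The signal was analysed as log2(value + 1) with limma 3.58.1 (trend, 4 group means, Benjamini-Hochberg over 15808 genes with a mean of at least 10, threshold 0.05). DESeq2 1.42.0 and edgeR 4.0.16 (TMM scaling, quasi-likelihood) were run on recovered reads, in R 4.3.3. RPM scaling gave nearly the same values as the deposited scaling. The limma fit was also run on simulated counts, for old against young over both drinks only. Those counts held no shifts shared by genes within a library, so the run cannot show how the fit behaves with such shifts. Of 29 pairs of replicates, none agreed within sampling noise (chi-square per degree of freedom 4.00 to 90.3). Titles name each sample as a mouse brain with a replicate number. GENCODE M21 and RefSeq (GRCm38) held 8 of the 9 RNAs and 96.3% of tested genes; blastn was 2.17.0 (word size 11). Levels per kilobase use all annotated exon bases.

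The 9 RNAs, the gene lists and the alternatives were chosen with earlier results of these data known, and the libraries left out together were chosen after seeing the data. Named genes are the 9 RNAs, the 5 genes nearest to each by Pearson's r (predicted genes and pseudogenes set aside) and up to 4 called genes per list with the smallest p. 1 result under this rule is not reported here. The RNAs listed as without a tail, Dlk1 and the genes of the imprinted region were named after their values were seen. Further lists covered other cell types: none of the markers of astrocytes, oligodendrocytes, their precursors, microglia, choroid plexus, ependyma, blood, hindbrain, cortex and cerebellum had old vehicle 4 and old apigenin 5 as its 2 highest libraries. RNA polymerase I and rRNA processing genes did so in 7 of 30 cases and mitochondrial synthetases in 3 of 16.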

Additional observations from a re-analysis of the deposited data

Results flagged for a closer look

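Among 27 groups of 4 or 5 libraries (9 RNAs in 3 groups), 12 had a highest library whose gap to the next was a large part of the group's whole range by Dixon's criterion. Chance meets it in about 1 of 20 groups, but the RNAs were chosen with these levels known, so the 12 are a description and are not to be held against that rate. They lay in 4 libraries, and the groups are not independent, since the RNAs moved together. In old vehicle 4 these were Meg3 at 106411.5 normalised reads, Rian at 10048, Mirg at 615, Miat at 10950 (10949.61 before rounding) and Snhg11 at 46052. In old apigenin 5 they were Meg3 at 88309, Mirg at 567, Miat at 9956 and Snhg11 at 42119. For Rn45s they were young vehicle 2 at 244184 and old apigenin 2 at 1128462, and for Lars2 old apigenin 2 at 21709. Malat1 and Neat1 met the criterion in none of their 3 groups.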

How the results depend on the processing

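Counts of genes called moved most. For old against young on vehicle (622 called: 495 higher, 127 lower) DESeq2 called 1028 (582 higher, 446 lower), edgeR 328 higher and 178 lower, quantile normalisation 282 and 157, and a fit of only the 2 groups 402. Leaving out 1 library at a time gave 246 to 708, and 0 to 1 of the 9 RNAs called; all 7 libraries of these 2 groups that moved the count by over 1.5 times lowered it, down to 246 without young vehicle 2, 294 without young vehicle 3, 316 without young vehicle 4, 375, 329, 400.0 and 407 without old vehicle 1, 2, 4 and 5. Replicate numbers do not pair the samples: same-numbered libraries correlated at -0.25 to 0.31 (22 pairs, 4 over 0.1), and 5 of 17 libraries correlated best with their own number. With the replicate number as a block 388 genes were called; the block changed no other count by over 1.5 times and no call among the 9 RNAs.

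For old against young on apigenin (278 called) DESeq2 called 485, a fit of only those groups 130, and leaving out 1 library 149 to 387, with 171, 149 and 166 without young apigenin 1, 2 and 4. For both drinks (1913) the range was 1240.0 to 2213, with 1240.0 and 1272 without young apigenin 1 and 2. In young brain DESeq2 called 1 gene for apigenin where limma called 0.

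Of the 9 RNAs, edgeR and DESeq2 each called 1, Neat1, in old against young on vehicle and 1 with both drinks. Without old vehicle 4 and old apigenin 5 the members called were 1, 5 and 6 in old against young on vehicle, on apigenin and over both drinks, and the same numbers were called with old apigenin 2 left out too; the genes called on apigenin were then 853 and 958, and over both drinks 2915 with the pair left out. Without that pair, with or without old apigenin 2, Meg3 (log2 -0.0084) and Malat1 (-0.0735) changed sign in old against young on vehicle, as they did without old vehicle 4 alone; leaving out 1 library gave -0.0084 to 0.63 for Meg3 and -0.0735 to 0.54 for Malat1. The median r of the 21 pairs was 0.59 with the group means and that pair removed. Quantile normalisation kept all 7 nuclear RNAs highest in that pair. Of Rn45s and Lars2 it kept 1 highest in old apigenin 2. This scaling gives the top-ranked gene of every library the same value, and Rn45s was tied between libraries under it. The count therefore cannot show that the excess of Rn45s in old apigenin 2 was lost. The causes were not tested. Depth limits Mirg, Rmrp and the small RNA genes most, and with 3 to 5 libraries a group a missed threshold does not show that levels were alike.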
